A study of Mus musculus with 8 samples.

Results

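The neutrophil chemokine axis and calprotectin were examined in Lewis lung carcinoma (LLC) tumors through 9 genes of the 55487 in the count table: the chemokines Cxcl1, Cxcl2, Cxcl3 and Cxcl5, their receptor Cxcr2, the growth factor gene Csf3 with its receptor Csf3r, and the calprotectin subunits S100a8 and S100a9. The genes were chosen by symbol, matched to Ensembl identifiers through GENCODE M21, and all 9 passed the count filter. LLC is a mouse lung carcinoma line that grows under the skin of C57BL/6J mice. RNA-seq was available from 8 tumors, 4 of wild-type LLC cells and 4 of LLC cells labelled Ago2 knock-out (ΔAgo2), all taken on day 12 after engraftment from untreated mice. Per the study's methods the hosts were female and 6 to 8 weeks old when purchased. Ago2 was disrupted in the cancer cells by lentiviral CRISPR, 1 clone was engrafted, and the host's own cells kept Ago2. An effect of that clone and an effect of the genotype therefore cannot be told apart. In bulk tumors, fewer cells of a type and less RNA per cell cannot be told apart either.

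Neutrophils are short-lived phagocytes made in the bone marrow. G-CSF, the product of Csf3, drives their production and release through its receptor, and chemokines with a Glu-Leu-Arg (ELR) motif such as those encoded by Cxcl1, Cxcl2, Cxcl3 and Cxcl5 draw them into tissue through CXCR2. In many tumors these chemokines and G-CSF are made by cancer cells, fibroblasts and macrophages in response to IL-1, TNF or IL-17, while S100A8 and S100A9, which pair to form calprotectin, are abundant in neutrophils and some monocytes and can be induced in stressed epidermis.

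Of the 9 genes, Csf3 alone differed between genotypes past the threshold, and it was 9.25-fold lower in ΔAgo2 tumors. The 4 ELR chemokines and both receptors had lower fitted levels in ΔAgo2 tumors and S100a8 and S100a9 higher ones, but none of these 8 differences passed the test. CPM values below are read counts per 1000000 of the TMM-scaled library total, and the test was the quasi-likelihood test of edgeR with Benjamini-Hochberg adjustment over 16061 genes at 0.05. At that threshold 3.09% of all genes tested were called in either direction and 1.92% as lower in ΔAgo2 tumors, beside 1 of the 9 genes here. Unadjusted p was under 0.05 for 2 of the 9 genes, Csf3 and Cxcl3, and for 26.3% of all genes. Libraries held between 7903288 and 268564145 counts, and wild-type tumors 4 and 2 were the shallowest. The Ago2 transcript was not lower in the libraries labelled Ago2 knock-out, with 118 to 354 CPM beside 130 to 195 CPM for wild-type (edgeR adjusted p = 0.209), so transcript level did not check the labels. The paper examined Ago2 protein in the LLC cells by Western blot, which RNA counts of whole tumors cannot replace.

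The 4 chemokine genes lie together on mouse chromosome 5, and 3 of them share 2 motifs just before their start. On GRCm38 (GENCODE M21) they run in the order Cxcl5 (chr5:90759360-90761624), Cxcl3 (chr5:90786103-90789600), Cxcl1 (chr5:90891241-90893115) and Cxcl2 (chr5:90903871-90905938), all on the plus strand. S100a8 (chr3:90668978-90670035, plus strand) and S100a9 (chr3:90692632-90695721, minus strand) are neighbours on chromosome 3. Cxcr2 (chr1:74153989-74161246), Csf3r (chr4:126024550-126044440) and Csf3 (chr11:98701263-98703629) lie on other chromosomes, on the plus strand.

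RefSeq promoters (GRCm38.p6, from 250 bases before to 50 bases after the start) matched 7 of the 9 genes, all but Cxcl5 and Csf3. They were searched on both strands for GGGAATTTC, a form of the site bound by NF-kappaB, and for ATAAAAG, a form of the TATA box. The 2 motifs do not overlap one another. GGGAATTTC was found in 4 of the 7 promoters (Cxcl1, Cxcl2, Cxcl3 and S100a9) and in 0.259% of 32851 promoters of the same length. ATAAAAG was found in Cxcl1, Cxcl2, Cxcl3 and S100a8, and in 5.42% of all promoters. Below are the stretches holding GGGAATTTC, shown because 3 chemokine promoters share the motifs and the levels of these genes are compared tumor by tumor further on. Each is written 5′ to 3′ on the gene's strand, with matches to either motif in capitals.
Cxcl1: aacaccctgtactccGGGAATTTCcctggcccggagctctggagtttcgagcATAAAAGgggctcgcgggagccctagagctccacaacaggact
Cxcl2: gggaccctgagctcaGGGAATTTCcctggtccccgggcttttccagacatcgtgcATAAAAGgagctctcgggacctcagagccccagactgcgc
Cxcl3: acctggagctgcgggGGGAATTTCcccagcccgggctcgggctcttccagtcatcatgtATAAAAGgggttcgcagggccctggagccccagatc
S100a9: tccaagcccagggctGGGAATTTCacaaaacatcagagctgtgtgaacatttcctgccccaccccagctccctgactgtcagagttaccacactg
They lie at chr5:90891159-90891253, chr5:90903787-90903881, chr5:90786013-90786107 and, on the minus strand, chr3:90695777-90695871. In the 3 chemokine promoters both motifs stand in the same order, and GGGAATTTC begins 71, 97 and 73 bases before the RefSeq start of Cxcl1, Cxcl2 and Cxcl3. These RefSeq starts differ from the GENCODE gene starts above, most for Cxcl2, so the distances depend on the annotation. In S100a9 it begins 135 bases before the start and ATAAAAG was not found in the window. A match is a description of the letters and not of binding.

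The 3′UTRs divided the genes in another way. The nonamer TTATTTATT, an AU-rich element of unstable mRNAs that tristetraprolin binds, occurred 2 times in the 3′UTR of Cxcl1, 4 times in Cxcl2 and 1 time in Cxcl3, and was not found in the other 6. The core pentamer ATTTA was present in all 4 chemokines (5 to 11 copies), in Csf3 (6 copies) and in Cxcr2 (2 copies), and was not found in Csf3r, S100a8 or S100a9. For each gene, the 3′UTR was that of its longest transcript with an annotated stop codon. Among 20657 protein-coding genes, the shortest 3′UTRs left out, 7.76% held the nonamer, and 4.79% of those between 322.5 and 1290 bases long. The 3′UTRs of Cxcl2 (1494 bases) and Cxcr2 (1818 bases) were longer than that range. Those of S100a8 (68 bases) and S100a9 (114 bases) were shorter, which leaves few positions for either motif.

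Csf3 differed most. Csf3 encodes G-CSF. Its level was 2.21, 1.72, 6.45 and 13.9 CPM in wild-type tumors 1 to 4 and 0.431, 0.596, 0.746 and 0.766 CPM in ΔAgo2 tumors 1 to 4. Every ΔAgo2 tumor was below every wild-type tumor, and the ΔAgo2 tumors lay close together while the wild-type tumors spread widely. Groups without overlap were found for 16.4% of all genes tested in either direction, and for Csf3 alone among the 9. The means were 6.07 ± 5.63 and 0.635 ± 0.156 CPM (SD, n = 4 each), and the fitted log2 fold change was -3.21 ± 0.64 (SE, edgeR adjusted p = 0.0292). These levels rest on 36 to 307 reads per wild-type library and 21 to 219 per ΔAgo2 library. The largest wild-type value came from tumor 4, the shallowest library; without it the fold was 5.42 and the call held (adjusted p = 0.0432). The call was lost without any 1 of ΔAgo2 tumors 2, 3 and 4 (log2 fold change -3.18, -3.28 and -3.31, adjusted p = 0.0846, 0.0777 and 0.0939) and without the shallowest 2 libraries (log2 fold change -2.74, adjusted p = 0.0665). In all it was lost under 9 of 25 alternatives, among them 3 limma fits of TPM (adjusted p = 0.0886 to 0.212).

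The receptor for G-CSF varied little. Csf3r was at 14.7, 16.7, 17.5 and 15.04 CPM in wild-type tumors and at 8.86, 11.5, 15.5 and 13.4 CPM in ΔAgo2 tumors. The groups overlapped through ΔAgo2 tumor 3, and the wild-type values lay within a narrow band (15.97 ± 1.34 CPM, against 12.3 ± 2.83 CPM). The log2 fold change was -0.38 ± 0.23 (edgeR adjusted p = 0.301).

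**Figure D1:**
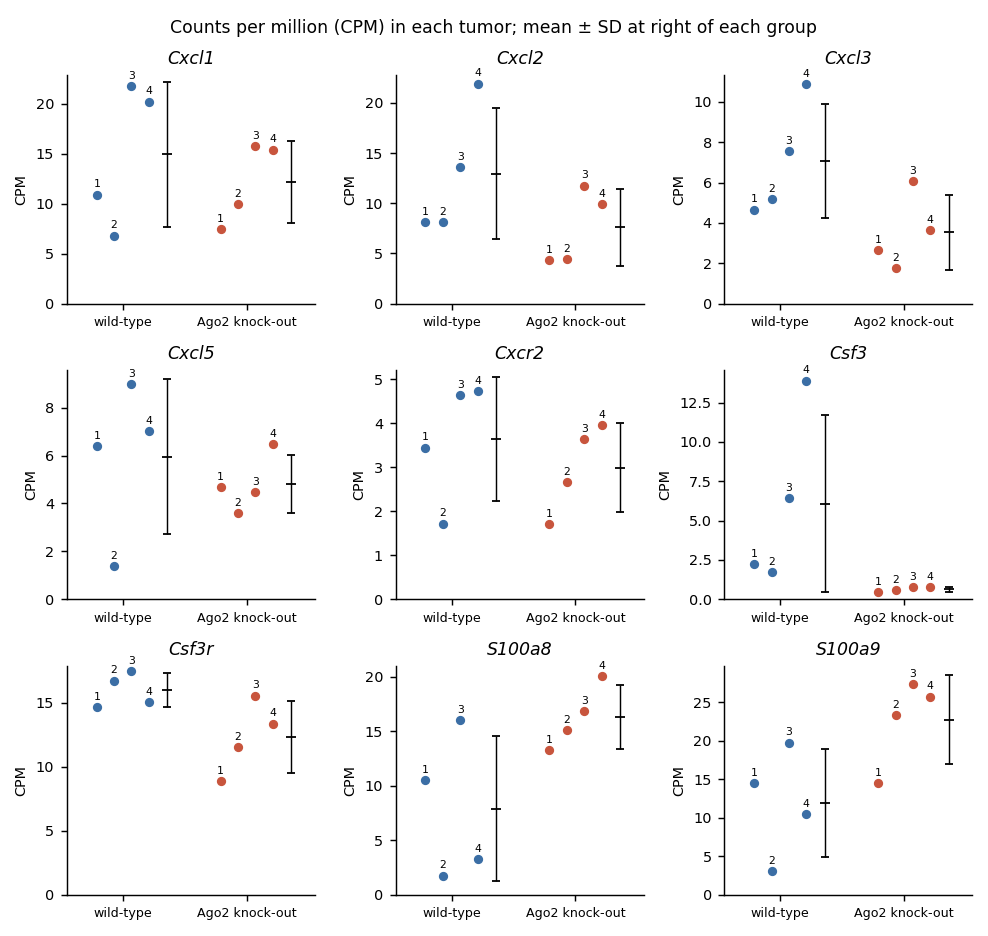
Level of each of the 9 genes in CPM (linear axes from 0) in every tumor; points are numbered by tumor, blue for wild-type and red for Ago2 knock-out, and the bar beside each group is the mean with its SD. Csf3 is below 0.8 CPM in all 4 Ago2 knock-out tumors and above 1.7 CPM in all 4 wild-type tumors, while the other 8 genes overlap between groups.

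For each of the 4 ELR chemokines, the highest values of the series came from wild-type tumors 3 and 4. Cxcl1, the mouse chemokine KC, was at 10.9, 6.81, 21.7 and 20.2 CPM in wild-type tumors and at 7.46, 9.92, 15.8 and 15.4 CPM in ΔAgo2 tumors. Wild-type tumor 2 was lowest of all 8, so the groups overlapped fully (log2 fold change -0.29 ± 0.39, edgeR adjusted p = 0.647). Cxcl2, the chemokine MIP-2, was at 8.15, 8.10, 13.6 and 21.9 CPM in wild-type tumors and at 4.33, 4.42, 11.8 and 9.95 CPM in ΔAgo2 tumors. Here ΔAgo2 tumors 1 and 2 were below every wild-type tumor, and ΔAgo2 tumors 3 and 4 were above wild-type tumors 1 and 2 (log2 fold change -0.75 ± 0.43, adjusted p = 0.282).

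Cxcl3, another CXCR2 ligand, was at 4.66, 5.19, 7.54 and 10.9 CPM in wild-type tumors and at 2.65, 1.77, 6.06 and 3.65 CPM in ΔAgo2 tumors. ΔAgo2 tumor 3 alone reached the wild-type range. With a log2 fold change of -0.99 ± 0.42, Cxcl3 had an unadjusted p of 0.038 in the edgeR test and an adjusted p of 0.168. Cxcl5, the chemokine LIX, was at 6.41, 1.38, 8.97 and 7.02 CPM in wild-type tumors and at 4.68, 3.59, 4.47 and 6.47 CPM in ΔAgo2 tumors. Wild-type tumor 2 was the lowest of all 8, and ΔAgo2 tumor 4 lay just above wild-type tumor 1 (log2 fold change -0.31 ± 0.47, adjusted p = 0.697).

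Cxcr2, the receptor of these chemokines, was at 3.45, 1.72, 4.64 and 4.73 CPM in wild-type tumors and at 1.70, 2.67, 3.64 and 3.96 CPM in ΔAgo2 tumors. Wild-type tumor 2 and ΔAgo2 tumor 1 were lowest, and the groups overlapped (log2 fold change -0.27 ± 0.39, edgeR adjusted p = 0.683). On the scale of deposited TPM, fitted with limma, the sign of the differences of Cxcl1 and Cxcl5 turned, and so did those of Cxcl1 and Cxcr2 under limma voom with quality weights. None of the 4 chemokines or Cxcr2 passed the threshold under any of the 25 alternatives.

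The calprotectin subunits ran the other way. S100a8 was at 10.5, 1.76, 16.01 and 3.29 CPM in wild-type tumors and at 13.2, 15.1, 16.9 and 20.1 CPM in ΔAgo2 tumors. Wild-type tumors 2 and 4 were far below the rest, on 37 and 23 reads, while wild-type tumors 1 and 3 were near or within the ΔAgo2 range. S100a9 was at 14.4, 3.05, 19.7 and 10.5 CPM in wild-type tumors and at 14.5, 23.4, 27.4 and 25.7 CPM in ΔAgo2 tumors. Again wild-type tumors 2 and 4 were lowest, and wild-type tumor 3 lay above ΔAgo2 tumor 1. The log2 fold changes were 1.01 ± 0.55 for S100a8 and 0.92 ± 0.46 for S100a9 (edgeR adjusted p = 0.254 and 0.221). Tumors 2 and 4 were also the shallowest libraries, and without them the values were 0.32 ± 0.25 and 0.43 ± 0.29 (adjusted p = 0.599 and 0.532). S100a9 passed the threshold under limma voom with quality weights (log2 fold change 0.91, adjusted p = 0.039) and under none of the other 24 alternatives.

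**Figure D2:**
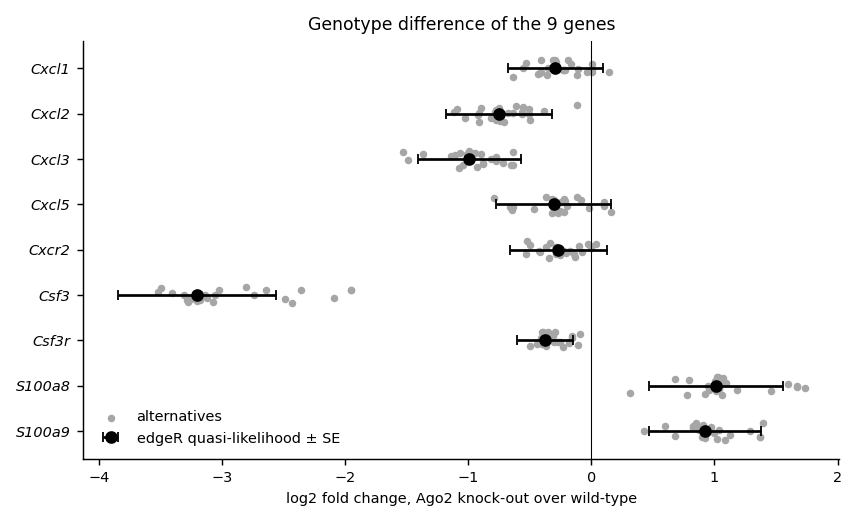
Log2 fold change of each gene, Ago2 knock-out over wild-type (horizontal axis); the black point is the edgeR estimate with its SE and the 25 grey points are the alternative settings. Csf3 stays between -3.52 and -1.95, S100a8 and S100a9 stay above 0, and points of Cxcl1, Cxcl5 and Cxcr2 fall on both sides of 0.

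Levels of different genes were compared per length, in the deposited TPM. S100a9 was the most abundant of the 9 at 100.3 ± 60.3 TPM (SD, n = 8), followed by S100a8 (52.9 ± 33.2), Cxcl1 (20.6 ± 8.60), Cxcl2 (13.7 ± 5.87), Csf3r (11.3 ± 2.95), Cxcl5 (8.17 ± 3.67), Csf3 (5.83 ± 6.92), Cxcl3 (4.13 ± 1.79) and Cxcr2 (3.12 ± 1.17 TPM). S100a9 exceeded S100a8 in 8 of 8 libraries, by a log2 ratio of 1.04 ± 0.47 (SD). Cxcl1 exceeded Cxcl2, and Csf3r exceeded Cxcl5, in 7 of 8 libraries. Cxcl2 and Csf3r traded places in both genotypes, with Cxcl2 higher in 2 of 4 tumors of each. Other neighbours traded places by genotype: Csf3 exceeded Cxcl3 in 3 of 4 wild-type and 0 of 4 ΔAgo2 tumors, and S100a8 exceeded Cxcl1 in 2 of 4 and 4 of 4, so the SD over 8 tumors includes the genotype difference. Csf3 moved furthest in rank: its mean was 10.2 ± 7.74 TPM in wild-type tumors and 1.43 ± 0.52 TPM in ΔAgo2 tumors (SD, n = 4 each).

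Some ratios among the genes within a tumor differed between genotypes without overlap and others overlapped. The summed TPM of S100a8 and S100a9 was 2.95, 0.858, 2.42 and 0.877 times the summed TPM of the 4 chemokines in wild-type tumors, and 5.01, 6.74, 4.21 and 4.46 times in ΔAgo2 tumors. All 4 ΔAgo2 tumors were above all 4 wild-type tumors, the deepest wild-type libraries 1 and 3 included. The calprotectin sum was also 1.81 to 12.6 times the TPM of Csf3r in wild-type tumors and 17.8 to 21.1 times in ΔAgo2 tumors. The separation was therefore not particular to the chemokines. The ratio of Csf3 to Cxcl1 was 0.269, 0.334, 0.394 and 0.913 in wild-type tumors and 0.0767, 0.08, 0.0626 and 0.0659 in ΔAgo2 tumors, where Csf3 itself was already without overlap. The ratio of S100a9 to S100a8 overlapped, at 1.64 to 4.22 in wild-type and 1.45 to 2.16 in ΔAgo2 tumors, and so did that of Csf3r to Cxcr2, at 2.68 to 8.25 and 2.85 to 4.38. These ratios were chosen after the values were seen and are given as a description with no test.

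**Figure D3:**
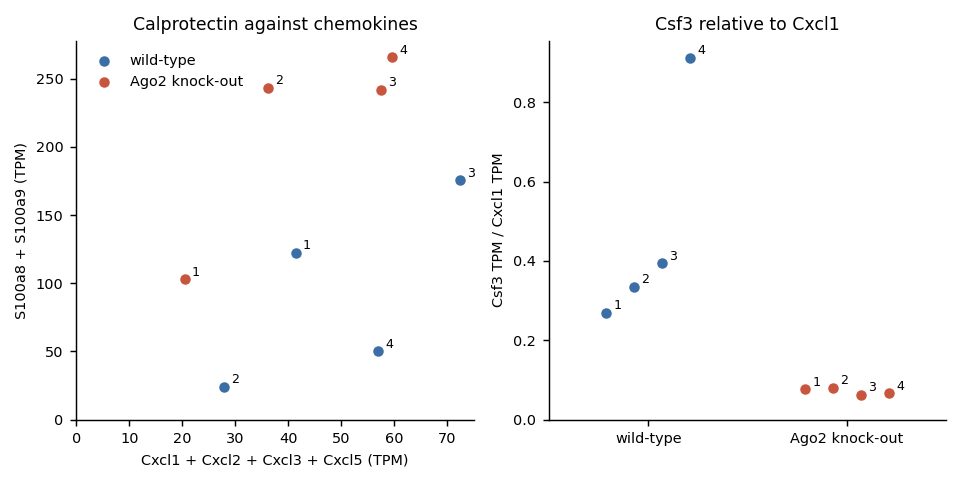
Left, summed S100a8 and S100a9 TPM (vertical) against summed Cxcl1, Cxcl2, Cxcl3 and Cxcl5 TPM (horizontal) in each of the 8 tumors; right, Csf3 TPM divided by Cxcl1 TPM; points are numbered by tumor. The calprotectin sum is 4.21 to 6.74 times the chemokine sum in Ago2 knock-out tumors and 0.858 to 2.95 times in wild-type tumors, and the Csf3 ratio is 0.0626 to 0.08 against 0.269 to 0.913.

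Over the 8 tumors, log2 CPM of the genes was correlated pair by pair, with exact two-sided permutation tests over 40320 pairings and Benjamini-Hochberg adjustment over 36 pairs. The adjusted p of Pearson's r was under 0.05 for 3 pairs. Cxcl1 followed Cxcr2 with r = 0.96 (exact p = 1.98e-04, adjusted 0.00536) and rho = 0.93 (exact p = 0.00223, adjusted 0.0268). Without wild-type tumor 2 and ΔAgo2 tumor 1, the libraries farthest from the median of Cxcl1, r was 0.94. S100a8 followed S100a9 with r = 0.94 (exact p = 2.98e-04, adjusted 0.00536) and rho = 0.95 (exact p = 0.00114, adjusted 0.0205), and r was 0.85 without wild-type tumors 2 and 4. Cxcl2 followed Cxcl3 with r = 0.94 (exact p = 0.00131, adjusted 0.0158) and rho = 0.88 (exact p = 0.00724, adjusted 0.0521), and r was 0.91 without wild-type tumor 4 and ΔAgo2 tumor 1. After each genotype's mean was removed, these r were 0.96, 0.90 and 0.93. All 3 pairs kept an adjusted p under 0.05 under the 3 other scalings.

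No pair of a chemokine and a calprotectin gene passed that test. Across the 4 chemokines and both calprotectin genes, the 8 values of r ran from -0.42 for Cxcl3 and S100a8 to 0.69 for Cxcl5 and S100a9 (exact p = 0.3 and 0.0988, adjusted 0.434 and 0.252), with rho of -0.19 and 0.05 (exact p = 0.665 and 0.935, adjusted 0.767 and 0.935). Without wild-type tumors 2 and 3, r of Cxcl5 and S100a9 was -0.52, so that relation rested on those libraries. After each genotype's mean was removed, r was above 0 for all 8 of these pairs, from 0.03 for Cxcl3 and S100a8 to 0.79 for Cxcl5 and S100a8, 0.80 for Cxcl1 and S100a9 and 0.89 for Cxcl5 and S100a9.

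The genes whose pattern was most like the members were sought among 13064 other genes with a mean of at least 1 CPM, by Pearson's r of log2 CPM over the 8 libraries, as a description with no test. Closest to the mean of the 4 chemokines were Adm, which encodes the vasodilator adrenomedullin (r = 0.97), Nrn1, which encodes neuritin (0.96), the transcription factor gene Bhlhe40 (0.93), Hcar2, a receptor gene for ketone bodies (0.93), and Vegfa, the angiogenic growth factor (0.93). All 5 were highest in wild-type tumor 4. Adm was at 45.3, 27.6, 67.6 and 98.0 CPM in wild-type tumors and at 30.2, 25.4, 41.6 and 50.0 CPM in ΔAgo2 tumors. Vegfa was at 57.0, 54.8, 82.2 and 133 CPM in wild-type tumors and at 46.4, 46.4, 77.7 and 70.6 CPM in ΔAgo2 tumors. Closest to the mean of S100a8 and S100a9 were Fam114a2 (r = 0.99), Pdss1 (0.99), BC055324 (0.98), Hspa5, the chaperone BiP of the endoplasmic reticulum (0.98), and Cnbp, a nucleic acid binding protein (0.98). Each of these 5 was lowest in wild-type tumors 2 and 4, the shallowest libraries. Hspa5 was at 452 and 606 CPM there, against 775 to 876 CPM in the other 6 tumors. With every library thinned to the depth of the shallowest, the log2 fold changes of S100a8 and S100a9 were 1.03 and 0.85 (edgeR adjusted p = 0.232 and 0.222).

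Of 61 tested genes in 6 lists upstream and downstream of the members, edgeR called 1, beside 3.09% of all genes tested. An unadjusted p under 0.05 was found for 13 (26.3% of all genes), DESeq2 called 8 (14.3% of all genes) and limma voom 16 (27.9% of all genes). The lists are described by their counts and medians beside the median log2 fold change of all genes tested, 0.04. Of 17 tested inducers of these chemokines and of G-CSF, none was called in either direction (3 at an unadjusted p under 0.05, 1 by DESeq2, 4 by limma voom) and the median was 0.13. Csf1, the macrophage growth factor M-CSF, was at 229 to 274 CPM in wild-type and 259 to 385 CPM in ΔAgo2 tumors (log2 fold change 0.41, edgeR adjusted p = 0.202). Tnfrsf1a, the main TNF receptor, Rela, the NF-kappaB subunit, and Cebpb, a transcription factor of G-CSF and acute phase genes, had log2 fold changes of -0.24, -0.51 and -0.05 (adjusted p = 0.49, 0.177 and 0.954). The genes that encode the inducers IL-17A and IL-17F were below the count filter.

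Genes that control the decay of chemokine mRNAs were led by Rc3h1, which encodes Roquin-1, an RNA-binding repressor of cytokine mRNAs. Rc3h1 rose from 18.4, 15.96, 22.0 and 13.5 CPM in wild-type tumors to 31.0, 60.2, 26.8 and 48.4 CPM in ΔAgo2 tumors (log2 fold change 1.25 ± 0.29, edgeR adjusted p = 0.0479). All ΔAgo2 tumors were above all wild-type tumors, and groups without overlap were found for 16.4% of all genes tested. The call held under only 10 of 25 alternatives. With a correction for GC content the log2 fold change was 0.68 ± 0.20 (edgeR adjusted p = 0.0931). Rc3h1 was the 1 gene called of 10 tested in the list, and none was called lower. The median of the list was 0.01. Its paralog Rc3h2 had a log2 fold change of 1.34 ± 0.33 (adjusted p = 0.0524). Zfp36, which encodes tristetraprolin, was at 49.6, 52.5, 62.9 and 88.2 CPM in wild-type tumors and at 51.0, 33.4, 42.6 and 33.4 CPM in ΔAgo2 tumors (log2 fold change -0.66 ± 0.24, adjusted p = 0.131). The most abundant members of the list, Zfp36l2, Khsrp and Hnrnpd, had log2 fold changes of 0.13, -0.21 and 0.07 (adjusted p = 0.724, 0.568 and 0.819).

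Below the receptors, none of 12 tested signalling genes was called by edgeR (3 at an unadjusted p under 0.05, 2 by DESeq2, 5 by limma voom) and the median was -0.30. The most abundant were Gnai2, a G protein subunit that couples CXCR2 (log2 fold change -0.43, edgeR adjusted p = 0.331), Grk2, a kinase that desensitises it (-0.41, adjusted p = 0.251), Grk6, another such kinase (-0.57, adjusted p = 0.132), and Stat3, the main transcription factor of the G-CSF receptor (-0.28, adjusted p = 0.35). Of 5 tested genes of other chemokines and chemokine receptors, ELR or not, edgeR called none (1 at an unadjusted p under 0.05, 1 by DESeq2, 0 by limma voom) and the median was -0.23. Pf4, platelet factor 4, lies in the same chromosome 5 cluster and had a log2 fold change of -0.23 (adjusted p = 0.737), and that of Ccr1, a chemokine receptor of myeloid cells, was 1.00 (adjusted p = 0.108). Ppbp, another ELR chemokine gene, had the lowest of the list, at -1.20 ± 0.55 (edgeR adjusted p = 0.197). Its means were 6.70 CPM in wild-type and 2.98 CPM in ΔAgo2 tumors, and its groups overlapped. The chemokine receptor gene Cxcr1 did not pass the count filter.

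For the receptors of calprotectin, none of 7 tested genes was called by edgeR (1 at an unadjusted p under 0.05, 0 by DESeq2, 1 by limma voom) and the median was 0.32. Bsg, which encodes basigin, and Cd14, a co-receptor of TLR4, were the most abundant, with log2 fold changes of -0.66 and -0.06 (edgeR adjusted p = 0.204 and 0.906). Other S100 genes gave 0 calls in the edgeR test among 10 tested (2 at an unadjusted p under 0.05, 2 by DESeq2, 3 by limma voom), with a median of 0.42. S100a6, the most abundant, was at 3012, 4327, 2072 and 6320 CPM in wild-type tumors and at 3781, 1179, 1743 and 1467 CPM in ΔAgo2 tumors (log2 fold change -0.94 ± 0.44, adjusted p = 0.197). S100a11 and S100a10 had log2 fold changes of 0.10 and 0.89 (adjusted p = 0.872 and 0.103).

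**Figure D4:**
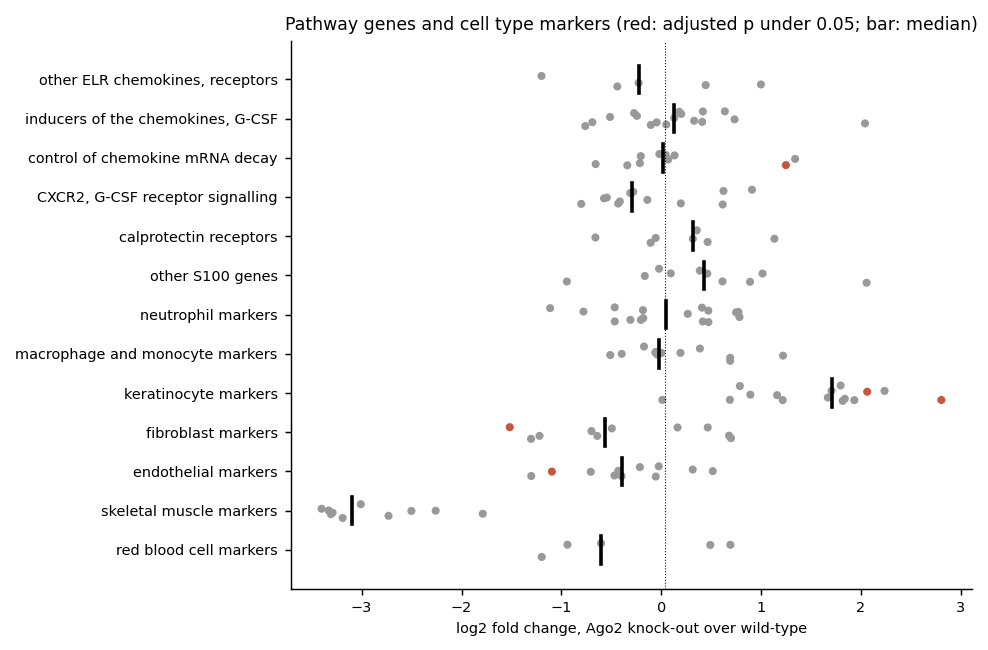
Log2 fold change, Ago2 knock-out over wild-type (horizontal axis), of each tested gene in 6 pathway lists and 7 cell type marker lists (rows); red points have an edgeR adjusted p under 0.05, black bars are list medians and the dotted line is the median of all genes tested. Red points are Rc3h1, Krt10 and Ivl on the higher side and Fap and Vwf on the lower side.

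Markers of neutrophils were uneven. Of 22 listed genes, 16 were tested, none was called by edgeR (1 at an unadjusted p under 0.05, 0 by DESeq2, 2 by limma voom), and the median log2 fold change was 0.04. Ly6g, which encodes the defining surface protein of mouse neutrophils, was at 0 in wild-type tumors 2 and 4, the shallowest libraries, where 3 counts equal 0.143 and 0.43 CPM, and at most 0.189 CPM elsewhere. The granule genes Elane and Mpo were at most 0.0187 and 0.042 CPM. Other genes of the list were detected in every library, such as Clec4d, a lectin receptor gene of myeloid cells (4.44 to 30.3 CPM), Hdc, the histamine-forming enzyme (5.26 to 14.6 CPM), and Trem1 (4.30 to 11.6 CPM). Retnlg, Cd177, Padi4 and Il1r2 were also detected in every library. Their log2 fold changes were -1.11, -0.18, -0.31 and 0.42 (edgeR adjusted p = 0.238, 0.786, 0.495 and 0.444). Of the 16 tested genes, 8 had higher and 8 had lower fitted levels in ΔAgo2 tumors. The summed level of the list was 97.6 to 172 CPM in wild-type and 84.5 to 141 CPM in ΔAgo2 tumors, much of it from Mmp9, a protease that macrophages and fibroblasts also make (26.5 to 105 and 23.8 to 51.4 CPM). Macrophage and monocyte markers summed to 1860 to 2379 and 1681 to 3368 CPM, with none of 12 called by edgeR (2 at an unadjusted p under 0.05, 1 by DESeq2, 3 by limma voom) and a median of -0.02.

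Markers of keratinocytes and skeletal muscle differed between libraries. Keratinocyte markers summed to 830, 788, 18.4 and 206 CPM in wild-type tumors and to 740, 690, 1345 and 1411 CPM in ΔAgo2 tumors, and of 15 tested genes all had a higher fitted level in ΔAgo2 tumors (median 1.71). EdgeR called 2 of them higher, Krt10 and Ivl, beside 1.17% of all genes (5 at an unadjusted p under 0.05, 4 by DESeq2, 7 by limma voom). Beside them, S100a8 and S100a9 were high in wild-type tumor 3, where keratinocyte markers were lowest and Krt16 was at 0, and low in wild-type tumor 2, where they were as high as in ΔAgo2 tumors 1 and 2. Wild-type tumor 4 was low in both, and ΔAgo2 tumors 3 and 4 were high in both. The part of keratinocytes in the S100a8 and S100a9 values was not tested. Skeletal muscle markers summed to 4108 CPM in wild-type tumor 3, with 290 to 551 CPM in the other wild-type tumors and 55.4 to 239 CPM in ΔAgo2 tumors (0 of 10 called by edgeR, 10 at an unadjusted p under 0.05, 3 by DESeq2 and 1 by limma voom; median -3.10). In the summed level every wild-type tumor was above every ΔAgo2 tumor, as in Csf3 and in the fibroblast sum below. Most single muscle genes overlapped, such as Ckm, at 24.3 CPM in wild-type tumor 1 and 30.45 CPM in ΔAgo2 tumor 1. Among all genes tested, 16.4% had groups without overlap. The call on Csf3 held without wild-type tumor 3 (log2 fold change -3.14, adjusted p = 0.0405).

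Fibroblast markers had a median of -0.57 with Fap called lower (1 of 10; 5 at an unadjusted p under 0.05, 3 by DESeq2, 6 by limma voom). Endothelial markers had a median of -0.40 with Vwf called lower (1 of 11; 2 at an unadjusted p under 0.05, 2 by DESeq2, 2 by limma voom). Their sums were 4994 to 7344 against 2415 to 4802 CPM, and 146 to 227 against 138 to 178 CPM. Red blood cell markers had a median of -0.60 with none of 5 tested genes called by edgeR, DESeq2 or limma voom and 0 at an unadjusted p under 0.05. The calls held under 10 (Krt10), 15 (Fap) and 9 (Vwf) of 25 alternatives, and for Ivl under 11 of 24. The part of each of these cell types in the Csf3 difference was not tested.

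**Figure D5:**
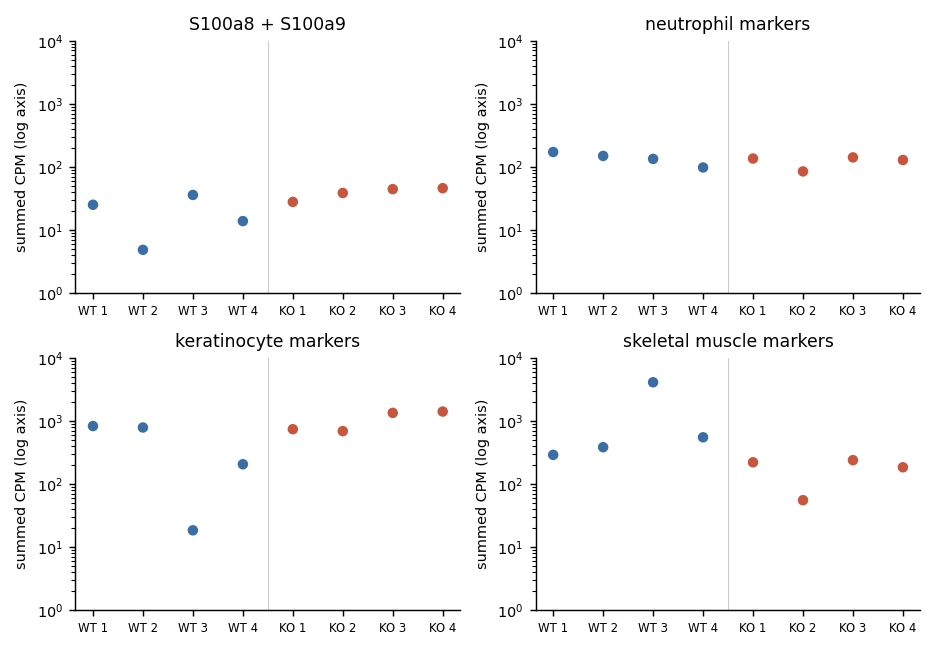
Summed CPM (log axes, the same range in all panels) of S100a8 and S100a9 and of 3 marker lists in each tumor; WT 1 to 4 are wild-type and KO 1 to 4 Ago2 knock-out. The calprotectin genes are lowest in wild-type tumors 2 and 4, keratinocyte markers in wild-type tumor 3 (18.4 CPM), and muscle markers are highest in wild-type tumor 3 (4108 CPM).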

How the data were processed

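RNA was extracted from 8 tumors with TRIzol and sequenced from libraries made with a stranded mRNA kit, per the labels. The authors deposited raw gene counts, whole numbers with no normalization, and TPM, which the authors scaled by gene length and library total. The submitters' processing notes name STAR and mm10; the counting settings for strand and for reads with several positions were not given in the sources used here for tumors, so counts of paralogs are uncertain. Of 55487 identifiers, 55094 matched GENCODE M21.

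Genes were filtered with filterByExpr (16061 kept), scaled by TMM and tested with edgeR 4.0.16 (glmQLFit with robust shrinkage, no covariate, R 4.3.3), with Benjamini-Hochberg adjustment over all genes tested. Log2 CPM used a prior count of 2. DESeq2 1.42.0, limma 3.58.1 and Python 3.11.15 were used for alternatives and tables. Groups and replicate numbers came from titles. No 2 libraries of a group agreed within sampling noise. The p-values measure the spread between 4 mice per group, each with 1 tumor. The limit set by a count of 0 was taken as 3 counts, or 0.0105 to 0.43 CPM by library, and covers counting error only. The procedure was tested on simulated counts.

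The members and lists were chosen with earlier results of these data known. Named genes were the 9 members, list genes past the threshold or otherwise the most abundant of each list, and the 5 genes most like each of the 2 member profiles. The individual marker genes, Zfp36, Rc3h2, Ppbp, Cxcr1, Il17a, Il17f, Il1a, Il1b, Tnf, Socs3 and Lyn were named after their values were seen. S100a3 was not analysed here. Alternatives covered scaling, test, filter, GC and length offsets, thinning, a replicate block, single libraries left out, and limma on log2 TPM with pseudocounts of 1 and 0.1 (filtered at 0.5 TPM in 4 or more libraries, or unfiltered); the fit without robust shrinkage and the one without the shallowest 2 libraries were chosen after seeing the data.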

Additional observations from a re-analysis of the deposited data

Results flagged for a closer look

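In groups of 4 tumors, a library was marked where its gap to the nearest of the others, divided by the group's range, exceeded Dixon's critical value. Of 46 groups of values examined (the 9 genes, the marker and pathway sums and the ratio of calprotectin to chemokines, in each genotype), 2 were marked, where chance marks about 2.3. The summed endothelial markers were low in wild-type tumor 1, at 7.19 log2 CPM against 7.78 to 7.83 in the other 3, and in ΔAgo2 tumor 2, at 7.11 against 7.45 to 7.47. None of the 9 genes was marked in either genotype.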

How the results depend on the processing

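Under the 25 alternatives the log2 fold change of Csf3 stayed between -3.52 and -1.95 (adjusted p 2.26e-06 to 0.212) and its call was kept in 16. Leaving out 1 library at a time gave -3.52 to -2.44, with 0 to 1 of the 9 genes and 82 to 1677 genes in all called, against 497. Without the shallowest 2 libraries Csf3 was at -2.74, with 0 of the 9 genes and 98 in all called. Replicate numbers did not pair the samples (correlations of deviations -0.24, 0.10, -0.04 and -0.29); with the replicate block Csf3 was at -2.81 (adjusted p = 0.0751; 0 of the 9 genes, 69 in all), and with the replicate block and the GC correction at -2.36 (adjusted p = 0.0625; 0 of the 9, 288 in all). By limma on log2 TPM, 0 of the 9 genes were called: Csf3 was at -1.95 (pseudocount 1, with or without filter) and -2.49 (pseudocount 0.1), and 153, 77 and 107 genes in all were called. There the differences of Cxcl1 (0.004, or 0.002 with pseudocount 0.1) and Cxcl5 (0.106 and 0.161) reversed, and under limma voom those of Cxcl1 (0.146) and Cxcr2 (0.04) did. Limma voom called 2 of the 9 genes and 4476 in all, the DESeq2 Wald test 2292 in all and the length correction 1142. The cause of these shifts was not tested. Of the 5 named correlations, that of Cxcl5 and S100a9 reversed without 2 libraries (-0.519); over all 36 pairs the sign changed in 9 without the 2 farthest libraries, in 3 on TPM and in 0 under the other scalings.

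Fold changes over all genes fell with GC content (Spearman -0.56, across genes that are not independent replicates). After the GC correction Csf3 was at -2.65 (adjusted p = 0.0383), S100a8 at 0.78, S100a9 at 0.68 and Csf3r at -0.09, nearer 0 than before it, while Cxcl1 (-0.64), Cxcl2 (-1.11), Cxcl3 (-1.49), Cxcl5 (-0.79) and Cxcr2 (-0.53) lay farther from 0. Of these 9 genes Csf3 alone passed the threshold. Among list genes, the correction left Rc3h1 at 0.68, Rc3h2 at 0.64 and Vwf at -0.59 (edgeR adjusted p = 0.0931, 0.13 and 0.146). Krt10 (2.355), Ivl (2.907) and Fap (-2.115) lay farther from 0 and stayed called (edgeR adjusted p = 0.0205, 0.0383 and 0.00839). Depth limits the low genes most. In wild-type tumor 4, 3 counts equal 0.43 CPM, while its Csf3 level of 13.9 CPM rested on 97 reads. In the ΔAgo2 libraries 3 counts equal 0.0105 to 0.0895 CPM, below their Csf3 levels of 0.431 to 0.766 CPM.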

Other observations

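Some list genes fell short of the threshold although their groups stood apart, as did those of 16.4% of all genes tested. Il1a, which encodes the alarmin IL-1 alpha, an inducer of neutrophil chemokines and of G-CSF, was at 0.318, 0.191, 0.252 and 0 CPM in wild-type tumors and at 0.697, 1.03, 0.895 and 1.13 CPM in ΔAgo2 tumors (log2 fold change 2.04 ± 0.49, edgeR adjusted p = 0.0519), in the direction opposite to Csf3. Over wild-type tumors 1 to 4, a count of 3 equals 0.0562, 0.143, 0.063 and 0.43 CPM, so the wild-type level of Il1a rests on few reads. Il1b, of the same list, had means of 27.1 CPM in wild-type and 29.8 CPM in ΔAgo2 tumors (log2 fold change 0.13, edgeR adjusted p = 0.833). Tnf had a log2 fold change of 0.20 (edgeR adjusted p = 0.769). Socs3, which encodes a feedback inhibitor of the G-CSF receptor induced by STAT3, was at 120, 161, 131 and 231 CPM in wild-type tumors and at 86.2, 82.4, 99.8 and 100.2 CPM in ΔAgo2 tumors (log2 fold change -0.80 ± 0.23, adjusted p = 0.0808), in the same direction as Csf3. Lyn, a Src family kinase gene of myeloid cells, was at 88.0, 56.9, 75.2 and 44.7 CPM in wild-type tumors and at 137, 137, 107 and 117 CPM in ΔAgo2 tumors (log2 fold change 0.91 ± 0.23, adjusted p = 0.0621). Il1a, Socs3 and Lyn were singled out after their values were seen, and Il1b and Tnf were added beside Il1a.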
